A study of Homo sapiens with 4 samples.

Results

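The genes described here are 38 that fold proteins in the endoplasmic reticulum (ER), remove those that fail to fold, or sense the load and answer it in the unfolded protein response. They were chosen by gene symbol, all 38 matched an Ensembl gene ID in a table of 43714 genes, and all 38 were among the 30952 genes with enough reads to test. They were followed in a pair of cell lines sorted from MDA-MB-231, a human triple-negative breast cancer line with mesenchymal features. Both lines carry the Wnt reporter 7TGP, with EGFP under 7 binding sites for TCF factors, were selected with 3 ug/mL puromycin and grew in DMEM with 10% fetal bovine serum. The reporter-positive line (MDA-MB-2317TGP-POS, labelled Wnt-positive) was more than 80% EGFP-positive after 8 rounds of sorting, and the reporter-negative line (MDA-MB-2317TGP-NEG, labelled Wnt-negative and control) was more than 95% EGFP-negative. Total RNA gave 2 libraries per line, named by line and number below. Each state is represented by 1 sorted line, so the activity of the reporter cannot be told apart from whatever else sets the lines apart. The labels do not say whether the libraries were made from different cultures, and the p-values then reflect the spread among these 4 libraries alone, which may be technical.

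As background, secreted and membrane proteins enter the ER through the SEC61 channel and are folded there by the Hsp70 protein BiP (HSPA5), the Hsp90 protein GRP94 (HSP90B1), the sugar-binding chaperones calnexin and calreticulin, and disulphide isomerases. Proteins that do not fold are pulled back to the cytosol and destroyed by ER-associated degradation (ERAD). When unfolded protein builds up, the sensors IRE1 (ERN1), ATF6 and PERK (EIF2AK3) signal to the nucleus, and ATF6, spliced XBP1 and ATF4 switch on chaperone, ERAD and amino acid genes. Secretory cells such as plasma cells keep this machinery at high levels.

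In the reporter-positive line, 22 of the 38 genes rose, 2 fell and 14 did not pass, where rising or falling means a Benjamini-Hochberg adjusted p under 0.05 in edgeR's quasi-likelihood test over all 30952 genes. Over all genes tested, 11.6% rose and 10.9% fell. Among protein-coding genes with a mean of at least 10 CPM (counts scaled to library size), 17.5% rose and 17.9% fell. The 22 genes that rose made up 57.9% of the list, and the 2 that fell made up 5.26%. The median log2 fold change of the list was 0.34, beside a median near 0 for all genes tested, and the changes were mostly moderate: those that rose did so by 1.18-fold to 2.18-fold, and 2 of them, PDIA4 and HYOU1, reached 2-fold. In 30 of the 38 genes (78.9%) both reporter-positive libraries lay above both reporter-negative libraries, which was so for 28.2% of all genes tested, 30.9% of the protein-coding ones and 34.4% of those with at least 10 CPM. In 4 genes both lay below, which was so for 29.5%, 32.7% and 35.1%. Summed over the 38 genes, the level was 8094 and 8994 CPM in the reporter-positive libraries, against 6602 and 6662 CPM in the reporter-negative libraries. The genes were chosen with earlier results of these data known, so their counts describe them and test nothing further. Fewer cells that express a gene and less RNA per cell cannot be told apart in such bulk libraries.

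**Figure D1:**
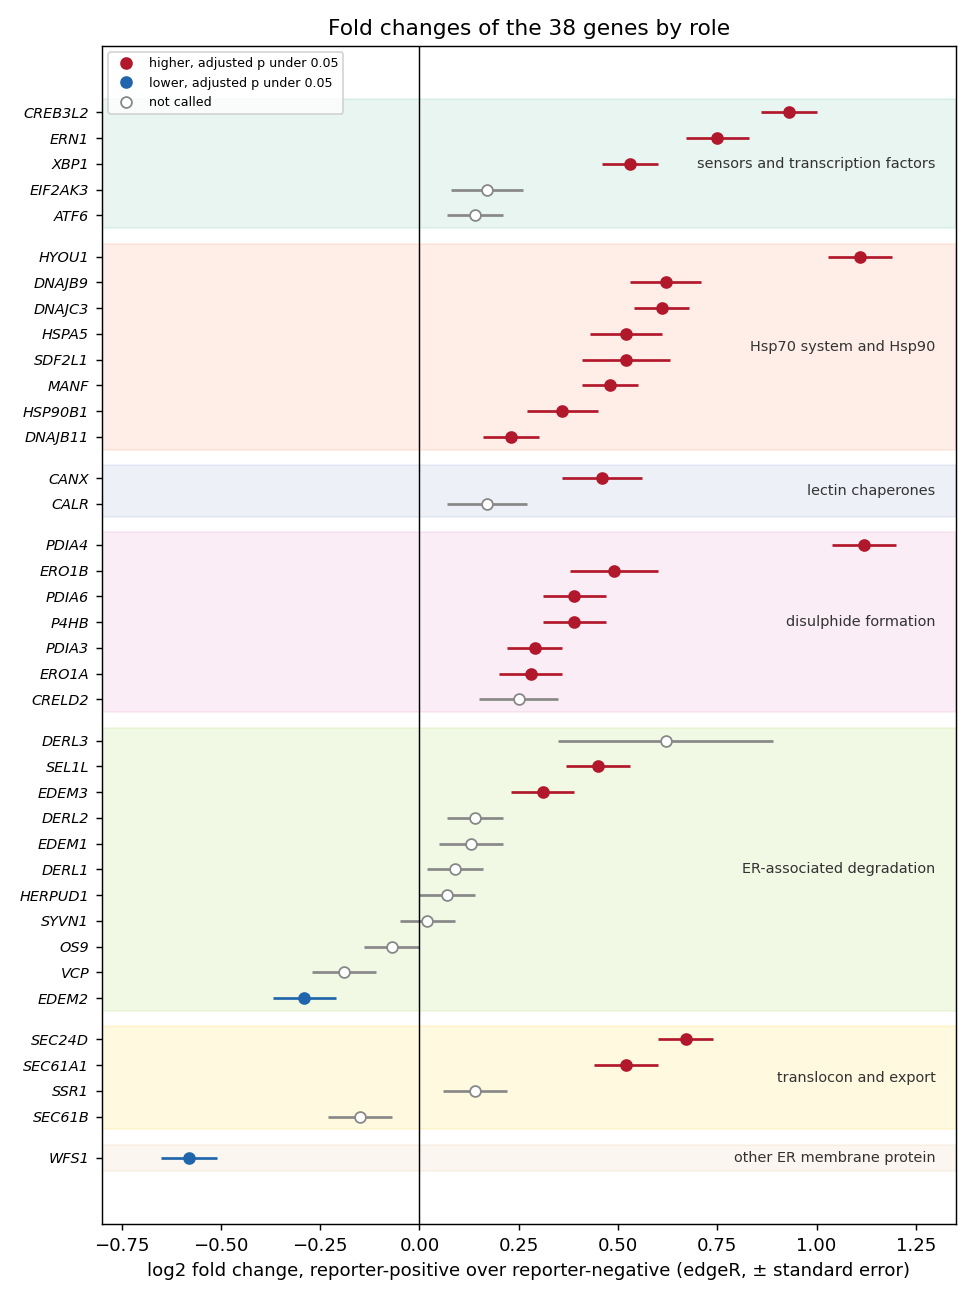
Log2 fold change of each of the 38 genes, reporter-positive over reporter-negative line, with its standard error from edgeR (2 libraries per line), grouped by role. Filled points passed at an adjusted p under 0.05 (red higher, blue lower) and open points did not; all 8 genes of the Hsp70 system and Hsp90 are red, while 8 of the 11 degradation genes are open.

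Library totals ran from 55894092 to 63034563 counts. Each of the 38 genes had at least 391 counts in each library except DERL3, which had as few as 52. The second reporter-positive library was the higher of its pair in 32 of the 38 genes (84.2%), and in 59.9% of protein-coding genes with at least 10 CPM. Without the reporter-negative library numbered 1, 14 of the 38 genes rose and 1 fell, without the reporter-negative library numbered 2, 15 rose and 1 fell, and without the reporter-positive library numbered 1, 28 rose and 2 fell. Without the reporter-positive library numbered 2, 23 rose and 4 fell. In 15 of the 24 genes that rose or fell, the call stood in every alternative that tested the gene. Of the markers for the labelled mesenchymal breast cancer cells, VIM stood at 1257 and 1343 CPM in the reporter-positive libraries, against 2714 and 2625 CPM in the reporter-negative libraries, and the epithelial marker CDH1 was under 1 CPM in all 4. The 7 mesenchymal markers summed to 3673 and 3992 CPM in the reporter-positive and 5089 and 5011 CPM in the reporter-negative libraries, a gap that VIM carries, since the other 6 summed to 2416 and 2649 against 2376 and 2387 CPM. Of these, SNAI2, MSN and CD44 rose, by 1.55-fold, 1.23-fold and 1.18-fold, and FN1, AXL and ZEB1 did not pass. The 7 epithelial or receptor markers summed to 268 and 292 against 350 and 359 CPM. Nearly all of it was KRT8 and KRT18, which fell by 1.3-fold and 1.2-fold, and the others did not pass. The 5 plasma cell markers summed to 74.6 and 79.6 CPM in the reporter-positive and 65.2 and 69.0 CPM in the reporter-negative libraries, nearly all of it SDC1, a proteoglycan gene that epithelial cells also use. MZB1, TNFRSF17 and JCHAIN were under 1 CPM in every library, TNFRSF17 at 0 in both reporter-positive ones, and no listed marker was at 0 in all 4. DERL3, in this marker list and also 1 of the 38 genes, had 1.62 and 1.09 against 0.819 and 0.961 CPM. Neither SDC1 nor DERL3 passed. Summed levels of 5 immune genes, reporter-positive libraries first, were 20.8 and 23.1 against 29.9 and 33.7 CPM. Most of it was CD68, which overlaps ENSG00000264772, a gene with 1168% as many counts. CD68 and LYZ fell, by 1.47-fold and 2.32-fold, PTPRC did not pass, and CD3E and CD79A had too few reads to test. For 4 endothelial genes the sums were 85.9 and 69.5 against 95.9 and 82.3 CPM, nearly all of it PECAM1. PECAM1, CDH5 and VWF did not pass, while KDR rose 1.31-fold. For 5 fibroblast genes the sums were 10.1 and 8.09 against 7.69 and 6.72 CPM. LUM rose 1.68-fold, and COL1A1, COL3A1, DCN and PDGFRA did not pass. Whether such cells had a part in the results was not tested.

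Several of these genes are known to share control elements, so the 250 bases before the start site were read for the 34 of 38 genes with an entry in RefSeq (GRCh38.p14). The motifs searched, on both strands, were the ER stress element (ERSE), CCAAT and CCACG with 9 free bases between them, known to be bound by ATF6 together with NF-Y, a shorter form (ERSE-II), ATTGG and CCACG with 1 free base between them, and the element TGACGTGG (UPRE, known to be bound by ATF6 and XBP1). An ERSE stood before CALR, CANX, CRELD2, ERO1B, HSP90B1, HSPA5 and XBP1, that is 7 of the 34 genes, and before 22 of 27305 promoters read in the same way (0.0806%). An ERSE-II stood before HERPUD1, HYOU1 and SDF2L1, and before 14 of all promoters (0.0513%). A UPRE stood before HYOU1 and VCP, and before 182 of all promoters (0.667%). All promoters include those of the 34 genes. The motifs were searched because such genes are known to share them, so these shares describe the genes and test nothing. Of the 10 genes with either kind of ERSE, 7 rose, and of the 24 without, 13 rose, so genes rose with and without these letters in this window. Shown are the windows of BiP and GRP94, the central chaperones, of HYOU1 and PDIA4, which rose most, and of HERPUD1, which carries an ERSE-II and did not pass. Each reads 5′ to 3′ on the strand of its gene, and capitals mark the matched letters, with the free positions inside a motif left in lower case. In HYOU1 the UPRE and the first ERSE-II share 5 letters.
HSPA5 (chr9:125241344-125241593, reverse strand): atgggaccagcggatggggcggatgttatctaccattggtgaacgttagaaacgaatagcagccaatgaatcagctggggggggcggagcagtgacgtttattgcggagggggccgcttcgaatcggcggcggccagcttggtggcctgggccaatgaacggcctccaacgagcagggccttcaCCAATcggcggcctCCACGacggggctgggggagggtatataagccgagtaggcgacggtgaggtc
HSP90B1 (chr12:103930160-103930409, forward strand): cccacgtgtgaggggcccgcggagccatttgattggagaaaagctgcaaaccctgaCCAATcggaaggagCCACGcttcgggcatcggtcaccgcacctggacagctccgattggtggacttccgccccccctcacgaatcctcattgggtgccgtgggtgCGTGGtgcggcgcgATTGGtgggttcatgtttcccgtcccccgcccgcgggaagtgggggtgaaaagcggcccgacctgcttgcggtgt
HYOU1 (chr11:119057206-119057455, reverse strand): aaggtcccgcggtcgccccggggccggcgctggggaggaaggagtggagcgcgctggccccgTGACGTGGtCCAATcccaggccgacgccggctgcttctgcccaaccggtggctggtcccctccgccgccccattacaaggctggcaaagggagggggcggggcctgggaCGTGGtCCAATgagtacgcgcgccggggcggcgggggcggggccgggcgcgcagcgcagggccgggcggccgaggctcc
PDIA4 (chr7:149028491-149028740, reverse strand): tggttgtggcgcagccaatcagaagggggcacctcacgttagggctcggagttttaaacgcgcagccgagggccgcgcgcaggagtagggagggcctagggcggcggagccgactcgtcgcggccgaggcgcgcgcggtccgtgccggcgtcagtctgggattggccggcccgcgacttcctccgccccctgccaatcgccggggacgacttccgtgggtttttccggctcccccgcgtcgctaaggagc
HERPUD1 (chr16:56931892-56932141, forward strand): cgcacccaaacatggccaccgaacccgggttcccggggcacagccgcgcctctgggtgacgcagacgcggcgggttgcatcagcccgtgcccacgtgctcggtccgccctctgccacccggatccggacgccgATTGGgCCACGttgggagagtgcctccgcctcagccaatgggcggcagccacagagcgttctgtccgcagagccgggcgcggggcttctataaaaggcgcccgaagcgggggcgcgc
The BiP window holds 1 ERSE, whose first base is at -66 from the start site. The GRP94 window holds 2 on opposite strands, and the PDIA4 window holds none of the 3 motifs. Only exact letters were searched, so copies with a changed letter were not counted, here or in the counts above. A match describes letters and is no measure of binding.

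Among the sensors of the response, ERN1 passed while ATF6 and EIF2AK3 did not. The difference between them was not tested. ERN1, which encodes IRE1, the kinase and nuclease that splices XBP1 RNA (chromosome 17, 64039142 to 64130819 on GRCh38), had 35.4 and 35.5 CPM in the reporter-positive libraries, against 21.5 and 20.4 CPM in the reporter-negative libraries. It rose 1.69-fold, a log2 fold change of 0.75 ± 0.08 (SE) (edgeR, Benjamini-Hochberg adjusted p = 2.77e-07). The libraries of each line nearly coincided and the lines stood far apart. XBP1, the transcription factor gene downstream of IRE1 (chromosome 22, 28794555 to 28800597), had 62.4 and 69.0 CPM in the reporter-positive libraries, against 44.6 and 46.2 CPM in the reporter-negative libraries. It rose 1.45-fold (edgeR, Benjamini-Hochberg adjusted p = 1.61e-05), and its counts do not separate the spliced from the unspliced form. ATF6, the membrane-bound factor that is cut in the Golgi when proteins misfold, had 82.9 and 91.6 CPM in the reporter-positive libraries, against 80.7 and 77.4 CPM in the reporter-negative libraries. EIF2AK3, which encodes PERK, the kinase that slows translation, had 18.3 and 19.7 CPM in the reporter-positive libraries, against 17.6 and 16.2 CPM in the reporter-negative libraries. The lines did not overlap for these genes either, but the gap between the nearest libraries was small, and neither passed (edgeR's Benjamini-Hochberg adjusted p = 0.201 for ATF6 and 0.169 for EIF2AK3). Their log2 fold changes were 0.14 and 0.17, with 0.06 to 0.21 and 0.09 to 0.24 over the alternatives. Without the reporter-positive library numbered 1 they were 0.21 and 0.23. That fit rests on the reporter-positive library numbered 2 alone, which was the higher of its pair in all 5 genes of this group. CREB3L2, a membrane-bound transcription factor gene related to ATF6 that is known in mouse cartilage for switching on ER export genes, had 78.1 and 82.2 CPM in the reporter-positive libraries, against 43.0 and 40.9 CPM in the reporter-negative libraries. Its rise of 1.91-fold was the largest of the 5 genes in this group (log2 fold change 0.93 ± 0.07, SE; edgeR, Benjamini-Hochberg adjusted p = 5.13e-09).

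**Figure D2:**
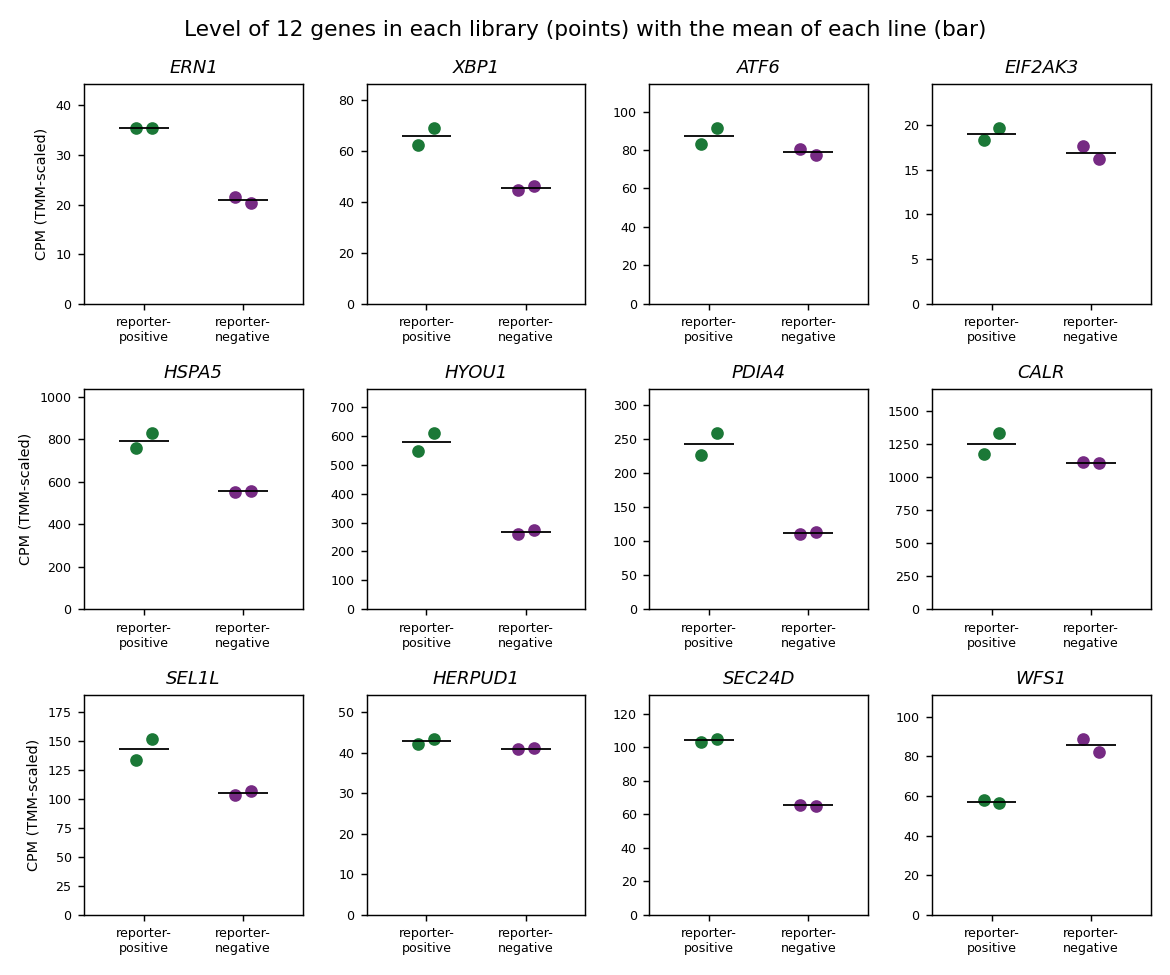
CPM, scaled by TMM, of 12 of the genes in each library (points), with the mean of each line (bar), reporter-positive left and reporter-negative right, each axis starting at 0. ERN1, HYOU1, PDIA4 and SEC24D stand clearly higher in the reporter-positive line and WFS1 lower, while for HERPUD1 the lines nearly meet, at 42.3 and 43.5 against 40.9 and 41.1 CPM.

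All 8 genes of the Hsp70 system and Hsp90 rose, with log2 fold changes from 0.23 to 1.11. HYOU1, which encodes a large Hsp70 relative that serves BiP as an exchange factor (chromosome 11, 119044189 to 119057202), had 548 and 609 CPM in the reporter-positive libraries, against 262 and 274 CPM in the reporter-negative libraries. It rose 2.16-fold (log2 fold change 1.11 ± 0.08, SE; edgeR, Benjamini-Hochberg adjusted p = 3.81e-09). ENSG00000255114, which overlaps HYOU1 and had 22.5% as many counts, had the same log2 fold change of 1.11. HSPA5 (chromosome 9, 125234853 to 125241330), whose product BiP binds unfolded chains and holds the sensors inactive, had 758 and 829 CPM in the reporter-positive libraries, against 551 and 558 CPM in the reporter-negative libraries. It rose 1.43-fold, or 0.52 ± 0.09 (SE) on the log2 scale (edgeR, Benjamini-Hochberg adjusted p = 1.47e-04). HSPA5P1, a processed copy of HSPA5 elsewhere in the genome, stood at 32.3 and 35.5 CPM in the reporter-positive libraries and 21.8 and 23.6 CPM in the reporter-negative libraries, a log2 fold change of 0.58, and reads of the gene and its copy may be shared.

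Among the J proteins, which bring substrates to BiP and start its ATP cycle, DNAJC3, also known as an inhibitor of PERK, had 101 and 110 CPM in the reporter-positive libraries, against 68.5 and 69.8 CPM in the reporter-negative libraries. It rose 1.52-fold, or 0.61 ± 0.07 (SE) on the log2 scale (edgeR, Benjamini-Hochberg adjusted p = 2.94e-06). DNAJB9, which returns BiP to IRE1 and is a well-known target of XBP1, had 21.2 and 24.9 CPM in the reporter-positive libraries, against 15.2 and 14.8 CPM in the reporter-negative libraries. It rose 1.54-fold (edgeR, Benjamini-Hochberg adjusted p = 2.56e-05), while PNPLA8, which overlaps it and had 319% as many counts, had a log2 fold change of 0.11 and did not pass (adjusted p = 0.334 by the same test). MANF, a small secreted protein gene that is strongly induced by ER stress, had 45.7 and 47.6 CPM in the reporter-positive libraries, against 32.9 and 33.9 CPM in the reporter-negative libraries. It rose 1.39-fold (edgeR, Benjamini-Hochberg adjusted p = 4.49e-05). The other genes of the group rose less or at lower levels. SDF2L1, a partner of J proteins in the ER, rose 1.44-fold to 9.21 ± 0.124 CPM in the reporter-positive line, against 6.42 ± 0.366 CPM in the reporter-negative line (SD, n = 2). HSP90B1 rose 1.28-fold and stood at 1162 ± 79.4 CPM in the reporter-positive line, against 905 ± 21.9 CPM in the reporter-negative line (SD, n = 2). DNAJB11 rose 1.18-fold. HRG-AS1, which overlaps it and had 88.8% as many counts, had a log2 fold change of 0.11 and did not pass. Without either reporter-negative library the calls for HSP90B1 and DNAJB11 were lost, with edgeR's Benjamini-Hochberg adjusted p reaching 0.290 and 0.342 among alternatives that ran from 2.66e-11 and 0.00300, and that of DNAJB11 was also lost with scaling to total counts (adjusted p = 0.204 by the same test). The remaining 6 held, though HSPA5 without either reporter-negative library, and SDF2L1 without the one numbered 1, passed only narrowly.

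The sugar-binding chaperones, which hold newly made glycoproteins until they fold, did not move alike in the test. CANX, the gene of the membrane-bound calnexin, had 1087 and 1252 CPM in the reporter-positive libraries, against 845 and 856 CPM in the reporter-negative libraries. It rose 1.37-fold (edgeR, Benjamini-Hochberg adjusted p = 0.00117), a call lost without the reporter-negative library numbered 1 or 2 (0.110 and 0.0883 as adjusted p, the highest of alternatives that ran from 9.52e-19). CALR, the gene of the soluble calreticulin, had 1173 and 1333 CPM in the reporter-positive libraries, against 1113 and 1108 CPM in the reporter-negative libraries. CALR did not pass (edgeR's Benjamini-Hochberg adjusted p = 0.226), and the reporter-positive libraries differed from each other by more than the nearer of them differed from the reporter-negative libraries. Without the reporter-positive library numbered 1 it passed (adjusted p = 1.06e-04 by the same test, the lowest of alternatives that reached 0.681). The difference between CANX and CALR was not tested. Per kilobase of merged exon, CALR had the highest level of the 38 genes, 462 CPM per kb in the reporter-positive and 409 CPM per kb in the reporter-negative line, and DERL3 the lowest, 0.357 and 0.234 CPM per kb. Reads in introns were counted too, so these levels are approximate.

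Of the 7 genes of disulphide formation, 6 rose and 1 did not pass. PDIA4, an isomerase that works in a complex with BiP (chromosome 7, 149003062 to 149028641), had 227 and 259 CPM in the reporter-positive libraries, against 110 and 114 CPM in the reporter-negative libraries. Its rise of 2.18-fold was the largest of the 38 genes (log2 fold change 1.12 ± 0.08, SE; edgeR, Benjamini-Hochberg adjusted p = 1.31e-09), it stood in every alternative, and no listed gene overlaps it. Other isomerases rose less. PDIA6, which is known to restrain IRE1, had 234 and 257 CPM in the reporter-positive libraries, against 184 and 191 CPM in the reporter-negative libraries (edgeR, Benjamini-Hochberg adjusted p = 7.06e-04), and overlaps ATP6V1C2. P4HB, which encodes the founding isomerase and a subunit of collagen prolyl hydroxylase, had 488 and 526 CPM in the reporter-positive libraries, against 395 and 378 CPM in the reporter-negative libraries (edgeR, Benjamini-Hochberg adjusted p = 0.00125), and overlaps ENSG00000262831. PDIA3, the partner of calnexin and calreticulin, had 43.1 and 46.5 CPM in the reporter-positive libraries, against 37.3 and 36.1 CPM in the reporter-negative libraries (edgeR, Benjamini-Hochberg adjusted p = 0.00729). The lines were apart for each of these isomerases. PDIA3 is uncertain, since its copy PDIA3P1 had more counts than the gene itself. The copy stood at 101 and 111 CPM in the reporter-positive and 93.3 and 95.4 CPM in the reporter-negative libraries. A further reason is ENSG00000262560, which overlaps PDIA3, had 239% as many counts and had a log2 fold change of -0.03.

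The oxidases that feed electrons from the isomerases to oxygen rose as well. ERO1B had 11.6 and 10.5 CPM in the reporter-positive libraries, against 7.65 and 8.11 CPM in the reporter-negative libraries, a rise of 1.40-fold (edgeR, Benjamini-Hochberg adjusted p = 0.00187), and shares its locus with GPR137B, which had 125% as many counts and did not pass (adjusted p = 0.568 by the same test). ERO1A, the widely expressed oxidase, rose 1.22-fold to 183 ± 12.5 CPM, against 150 ± 1.31 CPM in the reporter-negative line (SD, n = 2). CRELD2, known as an ER stress target gene, stood at 12.4 ± 0.560 CPM in the reporter-positive and 10.4 ± 1.24 CPM in the reporter-negative line (SD, n = 2) and did not pass (edgeR's Benjamini-Hochberg adjusted p = 0.0945, and 0.0303 with the library number as a block and 0.0244 without the reporter-positive library numbered 1, among alternatives that reached 0.654). Without the reporter-negative library numbered 1, 2 genes of the group rose, PDIA4 and ERO1B, and without the one numbered 2, 3 rose, PDIA6 among them. The calls lost were those of PDIA3, P4HB and ERO1A in both cases, with edgeR's Benjamini-Hochberg adjusted p reaching 0.157, 0.148 and 0.222 among alternatives that ran from 2.34e-05, 5.37e-13 and 2.08e-09, and that of PDIA6 without number 1 (0.0879, against 1.12e-16 at the lowest). PDIA3 was also lost with scaling to total counts (adjusted p = 0.0690 by the same test).

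Of the 11 genes of ER-associated degradation, 2 rose, 1 fell and 8 did not pass, with a median log2 fold change of 0.09. The 18.2% that rose are close to the 17.5% of protein-coding genes with at least 10 CPM. SEL1L, the scaffold of the SYVN1 ubiquitin ligase (chromosome 14, 81471549 to 81533861), had 134 and 152 CPM in the reporter-positive libraries, against 103 and 107 CPM in the reporter-negative libraries. It rose 1.36-fold (edgeR, Benjamini-Hochberg adjusted p = 1.87e-04) and held in every alternative. SYVN1 itself, the ligase gene, had 110 and 115 CPM in the reporter-positive libraries, against 114 and 108 CPM in the reporter-negative libraries, so that the lines overlapped. SYVN1 overlaps FAU, which had 98.7% as many counts. The difference between SEL1L and SYVN1 was not tested.

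The EDEM proteins trim the sugars of misfolded glycoproteins and so mark them for removal. EDEM3 had 87.6 and 99.7 CPM in the reporter-positive libraries, against 77.0 and 73.8 CPM in the reporter-negative libraries, and rose 1.24-fold (edgeR, Benjamini-Hochberg adjusted p = 0.00487). EDEM2, which starts the trimming, had 16.9 and 15.8 CPM in the reporter-positive libraries, against 20.2 and 19.9 CPM in the reporter-negative libraries, and fell by 0.29 on the log2 scale (edgeR, Benjamini-Hochberg adjusted p = 0.0134). EDEM1, a known target of XBP1, had 120 and 138 CPM in the reporter-positive libraries, against 119 and 116 CPM in the reporter-negative libraries, and did not pass (edgeR's Benjamini-Hochberg adjusted p = 0.272). Neither the call for EDEM3 nor that for EDEM2 held in every fit with a library left out. EDEM2 and EDEM3 were lost without either reporter-negative library (edgeR, Benjamini-Hochberg adjusted p = 0.155 and 0.0916 for EDEM2, 0.0544 and 0.149 for EDEM3, the highest of alternatives that ran from 0.00178 and 9.85e-10), which left SEL1L as the sole call of the group. EDEM1 passed without the reporter-positive library numbered 1 (edgeR's adjusted p = 3.10e-04, the lowest of alternatives that reached 0.911).

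HERPUD1, which organises the ligase complex and is strongly induced by ER stress in many cells, had 42.3 and 43.5 CPM in the reporter-positive libraries, against 40.9 and 41.1 CPM in the reporter-negative libraries. Its log2 fold change was 0.07 ± 0.07 (SE), and it did not pass (edgeR's Benjamini-Hochberg adjusted p = 0.603; 0.423 to 0.901 over the alternatives). The Derlin genes, whose products sit in the retrotranslocation channel, did not pass either. DERL1 stood at 53.0 ± 2.30 and DERL2 at 37.3 ± 1.69 CPM in the reporter-positive line, against 49.6 ± 3.38 and 33.9 ± 0.481 CPM in the reporter-negative line (SD, n = 2). DERL3, typical of secretory cells, had 102 and 57 counts in the reporter-positive and 52 and 59 counts in the reporter-negative libraries, and SMARCB1, which overlaps it, had many times more, so its level is uncertain. It passed without the reporter-positive library numbered 2 (edgeR, Benjamini-Hochberg adjusted p = 0.0268, the lowest of alternatives that reached 0.613). OS9, a lectin that brings clients to SEL1L and overlaps ENSG00000257342, which had 100% as many counts, stood at 105 ± 3.47 CPM in the reporter-positive and 110 ± 5.46 CPM in the reporter-negative line (SD, n = 2). VCP, the ATPase that pulls clients out of the membrane, had 296 and 331 CPM in the reporter-positive libraries, against 348 and 366 CPM in the reporter-negative libraries. VCP did not pass (edgeR's Benjamini-Hochberg adjusted p = 0.112) but did with scaling to total counts and once the reporter-positive library numbered 2 was left out (adjusted p = 0.00894 and 3.46e-05 by the same test; up to 0.619 over the alternatives), so that without that library 2 genes of the group fell and 3 rose.

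Of 4 genes for entry into the ER and exit from it, 2 rose. SEC24D, a cargo-binding coat subunit of the vesicles that leave the ER (chromosome 4, 118722823 to 118838683), had 103 and 105 CPM in the reporter-positive libraries, against 65.7 and 64.8 CPM in the reporter-negative libraries. It rose 1.59-fold (log2 fold change 0.67 ± 0.07, SE; edgeR, Benjamini-Hochberg adjusted p = 4.47e-07). SEC61A1, the pore subunit of the translocon, had 227 and 253 CPM in the reporter-positive libraries, against 161 and 173 CPM in the reporter-negative libraries, and rose 1.44-fold (edgeR, Benjamini-Hochberg adjusted p = 3.89e-05). RUVBL1, which overlaps SEC61A1 and had 94.8% as many counts, had a log2 fold change of 0.46. SEC61B, a small subunit of the same channel, had 28.5 and 30.3 CPM in the reporter-positive libraries, against 32.3 and 32.9 CPM in the reporter-negative libraries, and did not pass (edgeR's Benjamini-Hochberg adjusted p = 0.183), though it did without the reporter-positive library numbered 2 (edgeR's adjusted p = 0.0488, the lowest of alternatives that reached 0.558). SSR1, a subunit of the translocon-associated complex, had 303 and 356 CPM in the reporter-positive libraries, against 303 and 296 CPM in the reporter-negative libraries, and passed only without the reporter-positive library numbered 1 (edgeR, Benjamini-Hochberg adjusted p = 6.41e-05, against 0.288 with all libraries and up to 0.952 over the alternatives).

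WFS1, which encodes the ER membrane protein wolframin that restrains ATF6 and is mutated in Wolfram syndrome, moved the other way (chromosome 4, 6269849 to 6303265). It had 57.8 and 56.6 CPM in the reporter-positive libraries, against 89.0 and 82.2 CPM in the reporter-negative libraries. WFS1 fell by 0.58 on the log2 scale ± 0.07 (SE; edgeR, Benjamini-Hochberg adjusted p = 4.16e-06), the largest fall of the 38 genes, and it held in every alternative. No listed gene overlaps it.

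Each gene was also set beside its chromosomal neighbours, the tested protein-coding genes within 5 Mb that are not among the 38. Their median log2 fold change lay within 0.2 of 0 for 18 of the 22 genes that rose. It was above 0.2 for 3, namely HYOU1 (0.39, 85 neighbours), PDIA4 (0.35, 62 neighbours) and SEC24D (0.24, 29 neighbours), and below -0.2 for 1, HSPA5 (-0.34, 122 neighbours). Each of the 22 had a higher log2 fold change than its neighbours' median, which follows largely from their being picked as genes that rose. EDEM2, which fell, had a log2 fold change of -0.29 beside -0.33 for its 104 neighbours, whereas WFS1 had -0.58 beside -0.10 for its 86 neighbours. HERPUD1 had 0.07 beside -0.23, VCP -0.19 beside -0.25 and SEC61B -0.15 beside -0.26. Of all 38 genes, 35 lay above their neighbours' median, and the share over all genes was not computed. The part of the neighbourhood in these values was not tested.

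**Figure D3:**
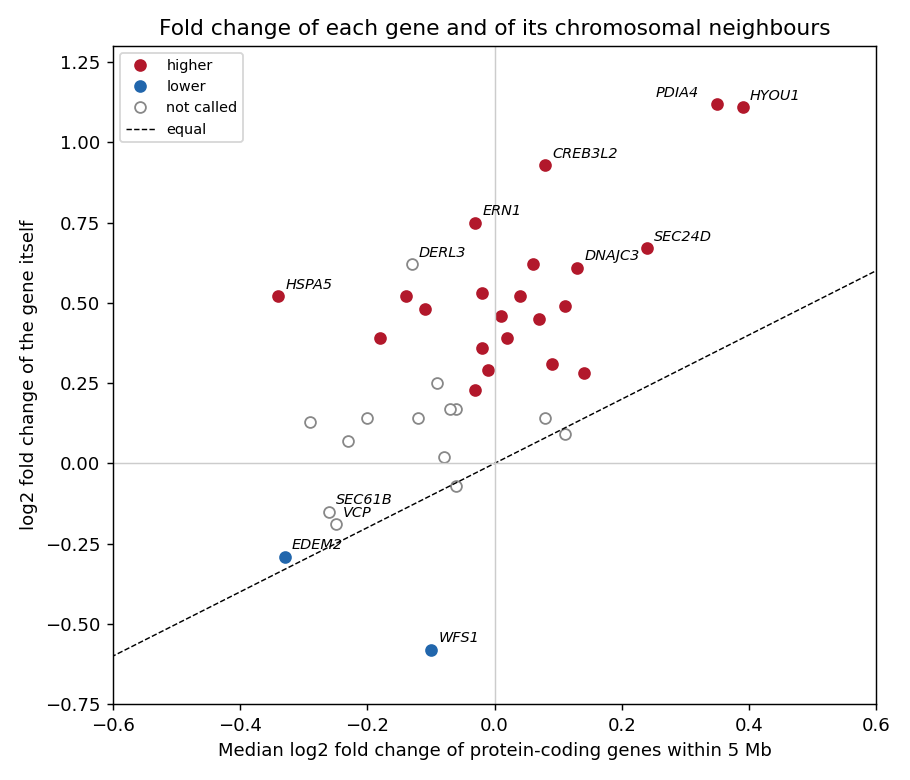
Log2 fold change of each of the 38 genes (vertical) against the median log2 fold change of tested protein-coding genes within 5 Mb (horizontal), reporter-positive over reporter-negative line, with the dashed line where both are equal. HSPA5 rose amid lower neighbours (-0.34), HYOU1 and PDIA4 amid higher ones (0.39 and 0.35), and EDEM2 lies close to the line.

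The wider pathway was followed in 134 further genes of ER folding, degradation and transport, of which 133 were tested. Of these 47 rose, 10 fell and 76 did not pass. That is 35.3% and 7.52%, beside 17.5% and 17.9% of protein-coding genes with at least 10 CPM. The median log2 fold change of the 133 genes was 0.12. With scaling to total counts 34 rose and 18 fell, without the reporter-negative library numbered 1, 28 rose and 2 fell, and without the one numbered 2, 27 rose and 5 fell. Without the reporter-positive library numbered 2, 46 rose and 19 fell.

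Further disulphide isomerases and oxidoreductases rose in 8 of 14 cases and fell in 1 (57.1% and 7.14%). TMX4, a membrane-bound thioredoxin-like protein, had 53.1 and 57.7 CPM in the reporter-positive libraries, against 33.8 and 32.9 CPM in the reporter-negative libraries (log2 fold change 0.73; edgeR, Benjamini-Hochberg adjusted p = 2.91e-07). PRDX4, the ER peroxiredoxin that uses up hydrogen peroxide from ERO1, rose 1.48-fold, and CRELD1 fell by 0.53 on the log2 scale beside -0.32 for its neighbours. Without the reporter-negative library numbered 1, 4 genes of this list rose, without number 2, 5 rose, and without the reporter-positive library numbered 2, 2 fell. Genes of glycan transfer, trimming and the lectin cycle rose in 9 of 18 cases and fell in 1. STT3A, the catalytic subunit of the oligosaccharyltransferase that acts during translocation, rose 1.58-fold beside 0.42 for its neighbours on the log2 scale, and its partner OSTC and the cargo receptor LMAN1 each rose 1.38-fold. In this list 5 rose without either reporter-negative library, and MAN1B1, the gene that fell, was 1.22-fold lower. Without the reporter-negative library numbered 1 none of the list fell, and 2 and 3 fell without the reporter-positive libraries numbered 1 and 2.

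Further translocon, signal peptidase and signal recognition genes rose in 9 of 22 cases and fell in 1, and in 14 without the reporter-positive library numbered 1. With all libraries, 40.9% of this list rose and 4.55% fell, and of the vesicle coat and KDEL receptor genes 36.8% rose and 5.26% fell. SRPRA, the receptor of the signal recognition particle, rose 1.51-fold beside 0.38 for its neighbours on the log2 scale. SSR2, which overlaps ENSG00000285677, rose 1.48-fold and SSR3 rose 1.40-fold. Without the reporter-positive library numbered 2, 2 genes of the list fell, and without the reporter-negative library numbered 1 the fall was lost. Vesicle coat and KDEL receptor genes rose in 7 of 19 cases and fell in 1, and 3 and 2 rose without the reporter-negative libraries numbered 1 and 2, against 11 without the reporter-positive library numbered 1. SEC23A, the partner of SEC24 proteins, rose 1.45-fold, KDELR2, which returns escaped chaperones to the ER and overlaps DAGLB, rose 1.31-fold, and SEC16A, an organiser of exit sites, fell by 0.38 on the log2 scale beside -0.41 for its neighbours, a call lost without the reporter-negative library numbered 1 (edgeR, Benjamini-Hochberg adjusted p = 0.170, the highest of alternatives that ran from 5.15e-12).

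Further Hsp70 cofactors and prolyl isomerases rose in 5 of 15 cases and fell in 1 (33.3% and 6.67%). HSPA13, an Hsp70 relative, rose 1.52-fold and DNAJC10, a J protein that reduces disulphides of misfolded proteins, rose 1.43-fold, while CNPY3, a cofactor of GRP94 for Toll-like receptors, fell by 0.62 on the log2 scale beside -0.49 for its neighbours. Without the reporter-negative library numbered 2, 3 of them rose, and 2 fell without a reporter-positive library. Regulators of the response outside the 38 genes rose in 3 of 13 cases and fell in 1. That is 23.1% and 7.69%, beside 17.5% and 17.9% of protein-coding genes with at least 10 CPM. The median log2 fold change of these regulators was 0.03. MAP3K5, the stress kinase downstream of IRE1, and MBTPS2, a protease that cuts ATF6, each rose 1.29-fold, and NFYA, a subunit of the factor that binds the CCAAT part of the ERSE, fell by 0.31 beside -0.43 for its neighbours on the log2 scale. RTCB, the ligase that joins XBP1 RNA after splicing, rose 1.19-fold. NFYA overlaps OARD1. In this list 1 rose and 2 fell with scaling to total counts, 1 and 2 rose and none fell without the reporter-negative libraries numbered 1 and 2, and 5 rose and 3 fell without the reporter-positive library numbered 2.

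Degradation genes outside the 38 moved both ways, with 6 of 32 higher, 4 lower and a median log2 fold change of -0.02. That is 18.8% and 12.5%, beside 17.5% and 17.9% of protein-coding genes with at least 10 CPM. ERLEC1, a lectin related to OS9 that overlaps GPR75-ASB3, rose 1.44-fold, the ligase gene MARCH6 rose 1.32-fold beside 0.40 for its neighbours on the log2 scale, and SELENOS, a selenoprotein that tethers VCP, rose 1.29-fold. The genes that fell were RNF5, TMEM129, HERPUD2 and BAG6, and were 1.16-fold to 1.20-fold lower. With scaling to total counts 3 rose and 6 fell, and without the reporter-positive library numbered 2, 4 rose and 6 fell, so that more fell than rose. Without the reporter-positive library numbered 1, 8 rose and 2 fell, and without the reporter-negative libraries numbered 1 and 2, 3 and 4 rose and 0 fell (edgeR's quasi-likelihood test, as above; DESeq2 with all libraries gave 5 higher and 2 lower). The difference between degradation genes and chaperones was not tested.

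**Figure D4:**
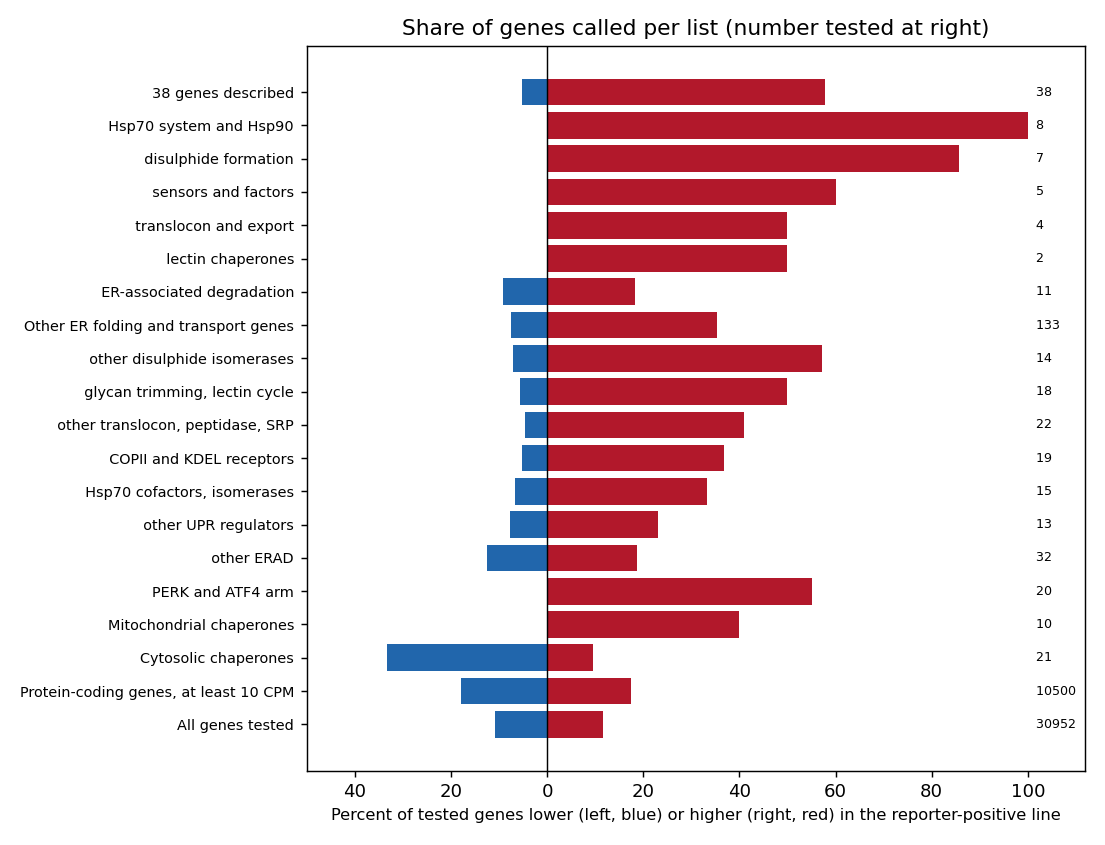
Percent of tested genes in each list that rose (right, red) or fell (left, blue) in the reporter-positive line at an adjusted p under 0.05 in edgeR, with the number tested at the right edge, the 38 genes and their role groups at the top and all genes at the bottom. Among the 38 genes the Hsp70 and Hsp90, disulphide and lectin groups reach 100%, 85.7% and 50% higher and the degradation group 18.2%, while in the further lists the disulphide isomerases reach 57.1%, the Hsp70 cofactors 33.3% and the degradation genes 18.8%, and the cytosolic chaperones have more genes lower (33.3%) than higher (9.52%).

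Genes of the PERK and ATF4 arm, which restores amino acid supply and can lead to cell death, were higher in 11 of 20 cases and lower in 0 (also 0 at an unadjusted p under 0.05; DESeq2 and limma-voom also called 0 lower), and the median log2 fold change was 0.25. The shares were 55.0% higher and 0% lower, beside 17.5% and 17.9% of protein-coding genes with at least 10 CPM. CEBPB, a transcription factor gene that overlaps CEBPB-AS1, had 51.7 and 54.2 CPM in the reporter-positive libraries, against 34.5 and 36.2 CPM in the reporter-negative libraries (log2 fold change 0.58 beside -0.32 for its neighbours; edgeR, Benjamini-Hochberg adjusted p = 4.42e-06). TRIB3, an inhibitory pseudokinase gene induced by ATF4 and CHOP, rose 1.39-fold, and the mitochondrial folate enzyme gene MTHFD2, which overlaps ENSG00000264324, rose 1.32-fold. The count of genes that rose was 5 with scaling to total counts, and 4 and 5 without the reporter-negative libraries numbered 1 and 2.

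Chaperones of other compartments gave other counts. Of 21 cytosolic chaperone genes 2 rose and 7 fell, with a median log2 fold change of 0.04. That is 9.52% and 33.3%, beside 17.5% and 17.9% of protein-coding genes with at least 10 CPM. HSP90AB1, the constitutive cytosolic Hsp90, had 513 and 575 CPM in the reporter-positive libraries, against 752 and 790 CPM in the reporter-negative libraries, and fell by 0.50 beside -0.56 for its neighbours on the log2 scale (edgeR, Benjamini-Hochberg adjusted p = 2.39e-04). HSPA1B, a heat-inducible Hsp70 gene nearly identical to HSPA1A, so that reads may be shared, fell by 0.42 beside -0.17, and CCT5, a chaperonin subunit, rose 1.54-fold beside 0.40. HSPH1, an exchange factor of cytosolic Hsp70, rose 1.26-fold. The counts were 1 higher and 1 lower, 1 and 4, and 8 and 6 without the reporter-negative library numbered 1, the one numbered 2 and the reporter-positive library numbered 1. Of 10 mitochondrial chaperone and protease genes 4 rose and 0 fell, also 0 at an unadjusted p under 0.05 in edgeR and 0 by DESeq2. YME1L1, an inner membrane protease, rose 1.33-fold, and HSPA9, the mitochondrial Hsp70, and LONP1, a matrix protease that overlaps RPL36, each rose 1.20-fold, and HSPD1, the chaperonin, rose 1.18-fold. Of these 4, 1 call was left without either reporter-negative library and with scaling to total counts.

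Counts cover whole gene spans and both strands, and a read in an overlap counts for each gene there. Of the 38 genes, 12 overlap no listed gene. In a fit restricted to such genes 9 of these 12 rose (ERN1, XBP1, HSPA5, SDF2L1, MANF, PDIA4, SEL1L, EDEM3 and SEC24D). In the same fit 1 fell (WFS1), and VCP and SEC61B did not pass. Over all 9888 genes tested in that fit, 1111 rose and 1093 fell. In 11 of the 38 genes, CRELD2, DERL1 and DERL2 among them, an overlapping gene had at least 50% as many counts.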

How the data were processed

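Per the labels' protocols, 1 ug of total RNA went into each of the 4 libraries, which share a batch label. The authors deposited raw counts per Ensembl gene ID, which were used as they stand. Per the submitters' processing notes, HISAT2, Bowtie2, DESeq2 and hg19 were used, with neither version nor role stated. For the counting tool, annotation and strand the sources used here give nothing. All 43714 IDs are in GENCODE release 29 on GRCh38, whose positions are given, since the table holds none. Among 1493 genes with at least 100 counts in each library nested in a longer gene and free of its exons, 563 on the same strand and 930 opposite, the host had at least as many counts in 1493 cases, so counts cover introns and both strands, at each gene a read overlaps.

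The test was that of edgeR 4.0.16 (R 4.3.3), with TMM scaling, filterByExpr (minimum count 10, minimum total 15), robust quasi-likelihood fit and F test, line as the only term, two-sided, Benjamini-Hochberg adjustment over 30952 genes, threshold 0.05. Standard errors derive from the F statistic. CPM uses TMM-scaled totals. The libraries within each line differed beyond counting noise (19.3 and 37.0 as chi-square over its degrees of freedom), so none was treated as a library deposited again; this does not show separate cultures. Alternatives were RLE and total count scaling, other count filters, DESeq2 1.42.0, limma-voom (limma 3.58.1), a block for the library number, omission of each library, and genes without overlap. Members and lists were chosen with earlier results of these data known, and the 5 Mb window after values were seen. Members with up to 5 smallest adjusted p per role, and the sensors, are given in full; of each further list, up to 3 with the smallest adjusted p and at least 5 CPM in the higher line. MAN1B1, RTCB, HSPH1, HSPD1, RNF5, TMEM129, HERPUD2 and BAG6 were named after their values were seen, and the translocon gene that fell is not reported here. Sequences are from RefSeq (GRCh38.p14), and figures were drawn with matplotlib 3.10.9 in Python 3.11.15.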

Additional observations from a re-analysis of the deposited data

How the results depend on the processing

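Among the 38 genes, no direction of a called gene turned under the 12 alternatives. With RLE scaling, other filters, DESeq2 and limma-voom 22 rose and 2 fell, as in the reported test. Scaling to total counts put the overall median at -0.09 (log2) and gave 20 higher and 3 lower. Over the fits without a single library 14 to 28 of the 38 rose and 1 to 4 fell. In the 134 further pathway genes 27 to 61 rose and 2 to 19 fell over those fits, with 34 higher and 18 lower under total counts. In the comparison lists 6 to 27 rose and 1 to 7 fell, with 8 higher under total counts. Over all genes 2333 to 4704 rose and 2025 to 4457 fell, and 2270 rose and 4032 fell under total counts. Among genes without an overlapping gene fewer could be tested: 9 of the 38 rose and 1 fell, 15 and 2 of the further pathway genes, 8 and 5 of the comparison lists, and 1111 and 1093 of all genes. The lone library of a line is assumed to vary like the other line in fits without a library.

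With the library number as a replicate block, 23 of the 38 rose and 2 fell, CRELD2 being the addition, and 52 and 13 of the further pathway genes. Numbers 1 of both lines deviated together weakly (correlation 0.137 over 15612 genes with at least 5 CPM), and nothing in the labels says that a number marks a shared culture or day, so the block was not used. The smallest fold change that passed among the 38 was 1.18, and DERL3, with the fewest counts, had the widest standard error, 0.27.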
